A study of Mus musculus with 12 samples.

Results

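A set of 10 genes of the Krüppel-like factor (KLF) family was examined for binding of TET2 in cultured mouse blood-forming cells. The family members examined were Klf1, Klf2, Klf3, Klf4, Klf6, Klf7, Klf9, Klf10, Klf11 and Klf13, which are 10 of 21887 protein-coding genes. A TET2 site was counted for one of these genes when its midpoint lay inside the gene, or when the start or end of that gene was the nearest among all protein-coding genes and at most 100 kb away. By this rule 64 of 25717 TET2 sites belonged to the KLF genes, 17 in the list of acute myeloid leukemia (AML) cells and 47 in the list of myeloid cells. Because 15 sites were in both lists, they marked 49 distinct places. TET2 was mapped by ChIP-seq, in which an antibody recovers the DNA fixed together with a protein. The antibody was a rabbit polyclonal raised against the N-terminal part of TET2. Cells of all libraries were fixed with the crosslinkers DSG at 2 mM and formaldehyde at 1%. The lists do not tell whether TET2 touched the DNA of a site itself.

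The myeloid cells were hematopoietic cells immortalized in culture with the retroviral transgene MigR1-AML1-ETO, with the wild-type samples labelled Tet2fl/fl; AML1-ETO and the knockout samples Tet2-/-; AML1-ETO. AML1-ETO, the fusion of RUNX1 with a corepressor, was thus carried by controls and knockouts alike. The AML cells carried no transgene and were labelled Npm1+/cA; Fl3+/ITD, and their knockout Npm1+/cA; Fl3+/ITD; Tet2-/-. Both cultures grew with stem cell factor at 50 ng/ml, interleukin 3 at 10 ng/ml and interleukin 6 at 10 ng/ml. For each culture, TET2 was pulled down in 2 wild-type and 2 knockout libraries, beside a single input and a single IgG library. The labels do not say whether the replicates came from separate animals or cultures. The lists hold no expression values, so the cell types could not be checked against their markers.

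KLF proteins bind GT-rich and GC-rich DNA, the CACCC boxes and GC boxes of promoters and enhancers, through zinc fingers at their C-terminal end. The parts outside the fingers differ and set what each member does. Klf9, Klf10, Klf11 and Klf13 belong to the branch that recruits the SIN3 corepressor, and Klf3 to the branch that recruits CtBP, while Klf1, Klf2, Klf4, Klf6 and Klf7 are counted with the activators. In blood, KLF1 drives red cell genes, KLF2 keeps T cells quiescent and KLF4 promotes monocyte differentiation. TET2 oxidizes 5-methylcytosine in DNA, and the study asked about its binding to enhancers in these cells.

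The RefSeq promoter table (GRCm38.p6, which has the chromosome coordinates of mm10) held a promoter for 9 of the 10 genes, the exception being Klf10. Each promoter runs from 250 bases before to 50 bases after a gene start. In 4 of these 9 genes a TET2 site of at least 1 list lay over the promoter. These 4 promoters are shown because sites at the starts of the same genes, described below, fall on them. Capitals mark the GT box CACCC, the GC box GGGCGG and the consensus site of MEF2 factors, each on either strand. Overlapping motifs merge into 1 run of capitals.
Klf13, chr7:63938866-63939165, minus strand: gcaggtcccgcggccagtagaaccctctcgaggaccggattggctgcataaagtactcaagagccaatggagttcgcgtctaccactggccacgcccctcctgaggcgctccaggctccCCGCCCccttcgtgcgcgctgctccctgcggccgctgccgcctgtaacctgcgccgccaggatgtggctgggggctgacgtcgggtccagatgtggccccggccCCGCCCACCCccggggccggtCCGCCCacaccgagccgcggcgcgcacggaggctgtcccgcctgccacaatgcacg
Klf6, chr13:5861239-5861538, plus strand: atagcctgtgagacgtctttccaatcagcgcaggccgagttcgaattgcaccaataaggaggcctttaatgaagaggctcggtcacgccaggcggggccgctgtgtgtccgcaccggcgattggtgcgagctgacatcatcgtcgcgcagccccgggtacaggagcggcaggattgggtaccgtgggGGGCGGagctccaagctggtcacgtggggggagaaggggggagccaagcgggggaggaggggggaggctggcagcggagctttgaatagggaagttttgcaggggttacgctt
Klf2, chr8:72318812-72319111, plus strand: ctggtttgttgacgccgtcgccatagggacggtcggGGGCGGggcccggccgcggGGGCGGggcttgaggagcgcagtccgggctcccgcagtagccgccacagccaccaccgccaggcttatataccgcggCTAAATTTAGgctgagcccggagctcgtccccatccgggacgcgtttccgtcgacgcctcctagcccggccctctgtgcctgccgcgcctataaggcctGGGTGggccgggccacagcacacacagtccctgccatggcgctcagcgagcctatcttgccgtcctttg
Klf11, chr12:24651121-24651420, plus strand: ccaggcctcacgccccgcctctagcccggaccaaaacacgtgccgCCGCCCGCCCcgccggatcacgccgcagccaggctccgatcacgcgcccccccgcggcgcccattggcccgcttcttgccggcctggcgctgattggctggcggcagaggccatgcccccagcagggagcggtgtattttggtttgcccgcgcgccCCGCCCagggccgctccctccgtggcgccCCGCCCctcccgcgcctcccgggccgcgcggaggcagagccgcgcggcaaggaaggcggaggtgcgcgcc

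The promoters of Klf13 and Klf2 lay under a site of both lists, and those of Klf6 and Klf11 under a myeloid site alone. Sites covered all 300 bases of the Klf13 and Klf2 promoters in each list and of the Klf11 promoter in the myeloid list. The myeloid site at Klf6 covered 261 of the 300 bases. Of all 17492 protein-coding genes with a promoter in the table, 1.94% had it under an AML site and 20.3% under a myeloid site, against 2 and 4 of the 9 KLF genes. The 4 promoters held 32, 23, 32 and 42 CpG dinucleotides in the order shown, where the median over 21263 promoters of protein-coding genes was 13. The KLF promoters under no site, those of Klf4, Klf3, Klf9, Klf7 and Klf1, held 40, 29, 28, 16 and 3. A high CpG count was thus not particular to the promoters under a site.

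The motif CACCC was found in 6 of the 9 KLF promoters and in 59.5% of all promoters of protein-coding genes. GGGCGG was found in 7 of the 9 and in 46.2% of all. In the Klf13 promoter the single CACCC overlaps a GC box, and the Klf6 and Klf11 promoters hold no CACCC. The MEF2 consensus site was found in 1 of the 9, that of Klf2, and in 104 promoters, or 0.489% of all. TGTGGT, the core that RUNX factors bind, occurred in 15.0% of all promoters and in 1 of the 9, that of Klf1, which had no site. The E-box CACGTG was found in 3 of the 9 and in 7.84% of all, and the box CCAAT in 5 of the 9 and in 38.2% of all. The core CCGGAA of ETS factor sites was in 0 of the 9 and in 18.7% of all. The motifs were chosen after the promoters had been read, and a match is a description of these letters.

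In the AML list 6 of the 10 KLF genes had a site, and in the myeloid list 9 of 10. Across all protein-coding genes the share with a site was 19.8% in the AML list and 42.0% in the myeloid list. The 10 genes were chosen with earlier results of these data known, so their shares here and elsewhere are descriptions. Of the 7 KLF genes left out, 2 had a site in the AML list and 2 in the myeloid list. Shares of genes also take no account of the length of sequence that the rule gives a gene. At least 1 site shared by both lists was found at 5 KLF genes, against 15.5% of all genes. At 3 KLF genes, Klf3, Klf4 and Klf11, sites were in the myeloid list alone, against 24.3% of all genes, and Klf1 had no site in either list. The 17 AML sites have an exact Poisson 95% interval of 9.90 to 27.2 and the 47 myeloid sites one of 34.5 to 62.5. The AML count fell to 11 when noncoding genes also competed for a site. The myeloid count was 2.76 times the AML count, and over all assigned sites the ratio was 2.79. There is 1 list per cell type, so no difference between lists has a replicate check, and intervals cover counting error over sites alone.

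**Figure D1:**
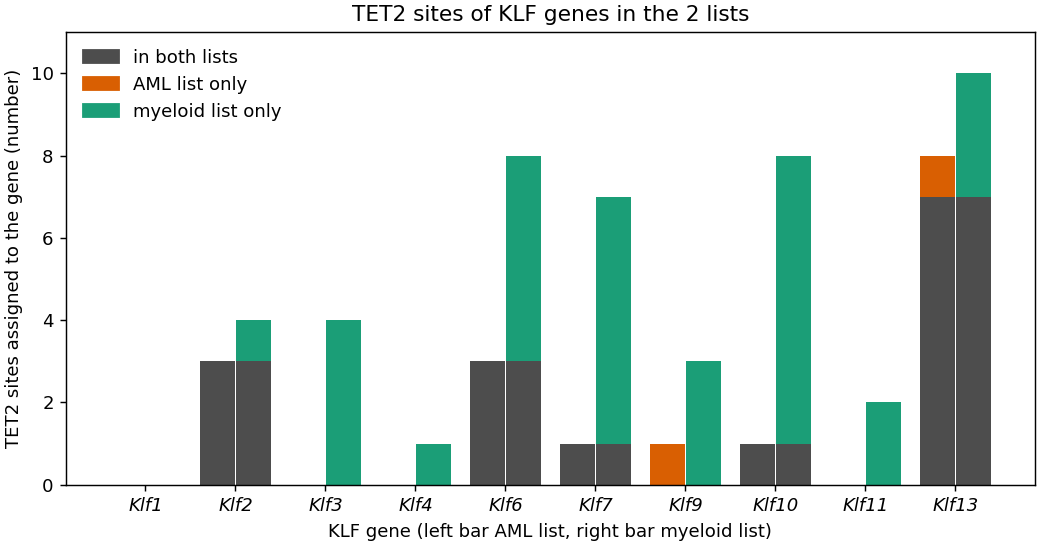
Number of TET2 sites assigned to each KLF gene (y axis) in the AML list (left bar) and the myeloid list (right bar), divided into sites present in both lists and sites of 1 list. Under this rule Klf13 had the most sites in both lists, 8 and 10, with 7 shared, and Klf1 had none; by nearest gene start or end alone, Klf13 had 7 myeloid sites, fewer than the 8 of Klf6 and Klf10.

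Klf13 held 8 of the 17 AML sites and 10 of the 47 myeloid sites. KLF13 is a repressor and activator of the SIN3-binding branch, known in T cells as a regulator of the chemokine gene Ccl5. Klf13 lies on chromosome 7 from 63886351 to 63938915, on the minus strand. Only 14 of the 21887 genes, Klf13 included, had 8 or more AML sites (0.0640%), and 70 had 10 or more myeloid sites (0.320%). These counts depend on the rule: the AML count of Klf13 was 5 with a limit of 50 kb or 20 kb and 4 when noncoding genes also competed. By nearest gene start or end alone its myeloid count was 7, when Klf6 and Klf10 had 8 each. The main rule gave Klf13 208.6 kb of sequence, with 3.84 AML and 4.79 myeloid sites per 100 kb, against 6.96 and 9.28 for Klf2. Without Klf13 the other KLF genes had 9 AML and 37 myeloid sites.

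The shared sites of Klf13 formed a row of 7 places across 135.1 kb in each list. In the AML list their midpoints lay 72.98 and 50.95 kb upstream of the gene start, 0.04 kb upstream of it, 2.46, 27.50 and 41.88 kb into the gene, and 9.51 kb beyond its end. The matching myeloid midpoints were 18 to 186 bp away. The site 27.5 kb into the gene was the broadest of the KLF genes after one at Klf9, with 1766 bp in the myeloid list, where 3 deposited sites overlapped, and 738 bp in the AML list. The 3 myeloid-only sites were all inside the gene, at 1.52, 13.42 and 16.76 kb from its start. The first of these ended 0.21 kb from the nearest AML site. The AML-only site (chromosome 7, 63999442 to 64000131) lay 60.87 kb upstream, between 2 shared sites and 9.16 kb from the nearest myeloid site. The next protein-coding gene on the upstream side began 192.0 kb away and that on the downstream side 120.1 kb away. The gene model E030018B13Rik overlaps Klf13, and its end was nearer than those of Klf13 for 1 AML and 3 myeloid sites inside Klf13.

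Klf9, a hormone-responsive member of the same branch, had sites in both lists that did not coincide, although its AML site went to another gene when noncoding genes also competed. It lies on chromosome 19 from 23141226 to 23168129, on the plus strand. Its 1 AML site (23125162 to 23125827) was 15.73 kb upstream of the start and 8.81 kb from the nearest myeloid site. Its 3 myeloid sites, all of them myeloid-only, lay 5.64 and 1.04 kb upstream and 1.04 kb inside the gene. The pair at 1.04 kb stood on either side of the promoter and missed it, as well as the 1 kb limit for a gene end. The site 5.64 kb upstream was 1905 bp wide, joined from 2 deposited sites, where the median of all myeloid sites was 709 bp.

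Klf10 and Klf11, the TGF-beta-inducible early genes, differed in the number of sites but not much in myeloid sites per length. The rule gave Klf10 135.0 kb of sequence and Klf11 29.9 kb, with 5.93 and 6.68 myeloid sites per 100 kb. Klf10 (chromosome 15, 38291464 to 38300711) had 1 AML site and 8 myeloid sites, or 5 myeloid sites with a limit of 20 kb or with noncoding genes competing. Its direction is not given in the table used, so positions are taken from the end with the lower coordinate. The AML site lay inside the gene at 7.80 kb and coincided with a myeloid site of 1067 bp, a width that 95.7% of the sites of that list did not exceed. Of the 7 myeloid-only sites, 1 stood 0.39 kb outside the end with the higher coordinate and 1 stood 1.69 kb outside it. The others lay 5.52 and 2.33 kb outside the lower end and 25.70, 73.37 and 84.20 kb outside the higher end. Klf11 (chromosome 12, 24651371 to 24662782, plus strand) had 0 AML sites and 2 myeloid sites, 1 at each end of the gene. These were 0.16 kb upstream of the start and 0.40 kb before the end, and the nearest AML site was 95.77 kb outside the gene, at the gene Rrm2. The 4 genes of the SIN3-binding branch that were examined here had 10 AML sites, 8 of them shared. Klf13 held 8 of these 10 AML sites and 7 of the shared ones. The same 4 genes had 23 myeloid sites, 15 of them myeloid-only.

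**Figure D2:**
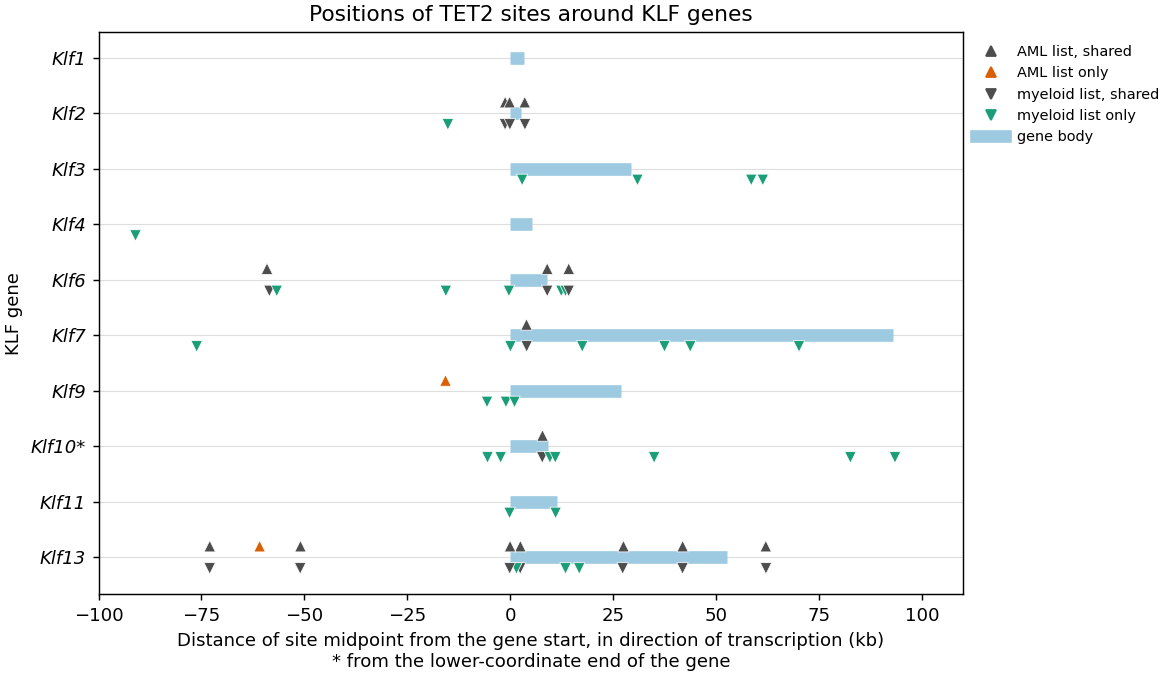
Positions of TET2 sites around each KLF gene, as distance of the site midpoint from the gene start in kb along the direction of transcription (Klf10 from its lower-coordinate end). Upward triangles are AML sites and downward triangles myeloid sites, dark where shared, and blue bars are gene bodies. The 7 shared Klf13 sites pair up across 135.1 kb, and 3 myeloid-only sites of Klf13 have no partner. The AML-only sites are 1 at Klf9 and 1 at Klf13.

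At Klf2, a factor of T cell quiescence and of the endothelium, all 3 AML sites were shared and clustered at the gene. Klf2 is 2.59 kb long and lies on chromosome 8 from 72319062 to 72321654, on the plus strand. In the AML list the sites lay 1.23 and 0.16 kb upstream of the start and 0.93 kb beyond the end, within a span of 4.8 kb. The myeloid sites at the same places had midpoints 36, 68 and 52 bp away and were 822, 932 and 907 bp wide, against 753, 741 and 839 bp in the AML list. The fourth myeloid site was myeloid-only and lay 15.15 kb upstream. The site over the start covers the promoter with the MEF2 site printed above. With 4 sites in 43.1 kb of assigned sequence, Klf2 had the highest density of the KLF genes in both lists, at 6.96 AML and 9.28 myeloid sites per 100 kb.

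Klf6, a widely expressed factor active in macrophages, had 3 AML sites and 8 myeloid sites, and all 3 AML sites were shared. With noncoding genes competing, 5 myeloid sites remained assigned to it. It lies on chromosome 13 from 5861489 to 5870393, on the plus strand, and the closest other protein-coding gene is 677.7 kb away. The AML sites lay 59.08 kb upstream, at the end of the gene (0.08 kb beyond it) and 5.30 kb beyond the end. The distal upstream pair overlapped by 101 bp alone, with midpoints 577 bp apart, and was no longer shared when at least 50% of the shorter site had to overlap. The other 2 pairs had midpoints 6 bp and 1 bp apart. The gene start had a myeloid-only site, 0.31 kb upstream. The other 4 myeloid-only sites lay 56.71 and 15.64 kb upstream and 3.50 and 4.53 kb beyond the end. The last of these ended 0.09 kb from an AML site. Together with the shared sites they placed 4 myeloid sites between the end of the gene and 5.30 kb beyond it.

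Klf7, which is best known from neurons, had 1 AML site and 7 myeloid sites. The gene spans 92.9 kb of chromosome 1, from 64029448 to 64122345 on the minus strand. The AML site (64118069 to 64118727) lay 3.95 kb inside the gene, and its myeloid partner had its midpoint 46 bp away. Of the 6 myeloid-only sites, 1 lay 0.05 kb inside the outermost start of the gene. This site did not reach the promoter in the table, which belongs to a start further inside. The others were 17.49, 37.46, 43.72 and 70.14 kb into the gene and 76.16 kb upstream.

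Klf1 and Klf4, the erythroid and the monocytic activator, had few sites or none. Klf1 (chromosome 8, 84901982 to 84905291) had 0 sites in either list, in an assigned sequence of only 9.1 kb between close neighbours. The exact Poisson upper limit of a count of 0 is 3.69 sites, so this count says little. The nearest myeloid site was 3.36 kb outside Klf1 and belonged to the gene Dnase2a by distance, and the nearest AML site was 54.16 kb away. Klf4 (chromosome 4, 55527137 to 55532475, minus strand) had 1 myeloid-only site, 91.09 kb upstream, and 0 AML sites in 172.8 kb of assigned sequence. The nearest AML site was 999.25 kb from Klf4. The site at Klf4 is the one nearest to the 100 kb limit on the inside, and it was lost with a limit of 50 kb or with noncoding genes competing. Just outside the limit were an AML-only site 126.3 kb from Klf6 and a myeloid-only site 133.3 kb from Klf7.

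Klf3, a repressor that recruits CtBP, had 4 myeloid sites and 0 AML sites. The myeloid count was 2 with a limit of 20 kb or with noncoding genes competing. It lies on chromosome 5 from 64803521 to 64832901, on the plus strand. One site lay 2.89 kb inside the gene, where the gene model Gm38457 overlaps it. The others were 1.52, 29.16 and 31.97 kb beyond the end. The nearest AML site was 50.25 kb from Klf3.

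Site counts grow with the sequence nearest to a gene, so they were also set against it. The KLF genes had 1.31 AML and 3.63 myeloid sites per 100 kb of assigned sequence, and all protein-coding genes 0.335 and 0.940. Without Klf13 the values of the KLF genes were 0.828 and 3.41. Single genes ran from 0 to 6.96 in the AML list and from 0 to 9.28 in the myeloid list. Klf1 and Klf4 were below the average of all genes in the myeloid list, at 0 and 0.579. In the AML list Klf1, Klf3, Klf4 and Klf11 were at 0, and Klf7, at 0.341, was close to the average. A count of 0 has an exact Poisson upper limit of 3.69 sites. It says little where the assigned sequence is short, as for Klf1 (9.1 kb), Klf11 (29.9 kb) and Klf3 (75.8 kb). The genes were selected with earlier results of these data known, and the densities were not tested.

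**Figure D3:**
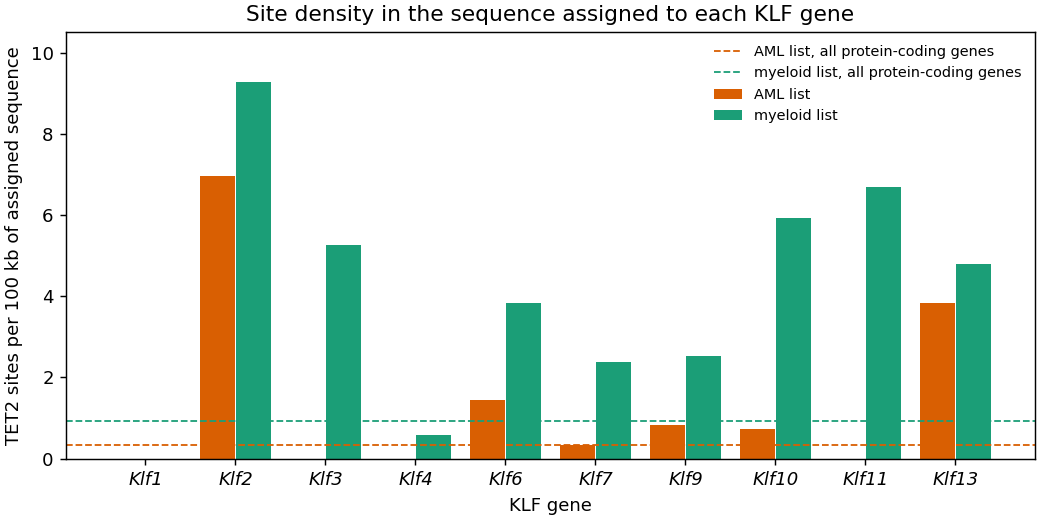
TET2 sites per 100 kb of the sequence assigned to each KLF gene (y axis) in the AML and the myeloid list, with dashed lines at the value over all protein-coding genes (0.335 and 0.940). Klf2 was highest in both lists, and Klf4 was below the dashed myeloid line at 0.579.

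Of the AML sites at KLF genes, 15 of 17 were also in the myeloid list (88.2%, exact Clopper-Pearson 95% interval 63.6 to 98.5). The share over all assigned AML sites was 72.3%, which lies inside this interval. Of the 47 myeloid sites 31.9% were shared (19.1 to 47.1), and over all assigned myeloid sites 25.9%. Shared myeloid sites at KLF genes had a median width of 806 bp and myeloid-only sites one of 694.5 bp. In the whole myeloid list these medians were 758 and 695 bp. The shared midpoints at KLF genes were a median of 40 bp apart, against 25 bp over all shared sites.

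By position, 3 KLF genes had an AML site within 1 kb of their own start or end and 6 had such a myeloid site, against 2.84% and 19.5% of all genes. The 3 genes of the AML list were Klf2, Klf6 and Klf13. The myeloid list added Klf7, Klf10 and Klf11. These gene-end sites numbered 4 of 17 in the AML list (23.5%, 6.81 to 49.9) and 9 of 47 in the myeloid list (19.1%, 9.15 to 33.3). Over all assigned sites the shares were 9.57% and 24.0%, both inside those intervals. All 4 AML gene-end sites were shared, and 5 of the 9 in the myeloid list were myeloid-only. With a window of 2 kb the myeloid number rose from 9 to 16, since 7 sites at Klf2, Klf3, Klf9, Klf10 and Klf13 stood between 1 and 2 kb from an end.

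Gene bodies, beyond 1 kb from the ends, held 5 AML sites, all shared, and 14 myeloid sites, 5 of them shared. These were 29.4% of the AML sites (10.3 to 56.0) and 29.8% of the myeloid sites (17.3 to 44.9), where over all assigned sites gene bodies held 49.1% and 44.4%. Outside the genes there were 8 AML sites, 6 of them shared, and 24 myeloid sites, 6 of them shared, or 47.1% and 51.1% against 41.3% and 31.6% of all assigned sites. These shares were not tested. Both AML-only sites lay upstream of a gene. More than 10 kb from both ends of their gene were 7 of the 17 AML and 21 of the 47 myeloid sites, or 41.2% and 44.7% against 58.6% and 46.3% of all assigned sites. The median distance to the nearer end was 5.30 kb in the AML list and 5.52 kb in the myeloid list.

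**Figure D4:**
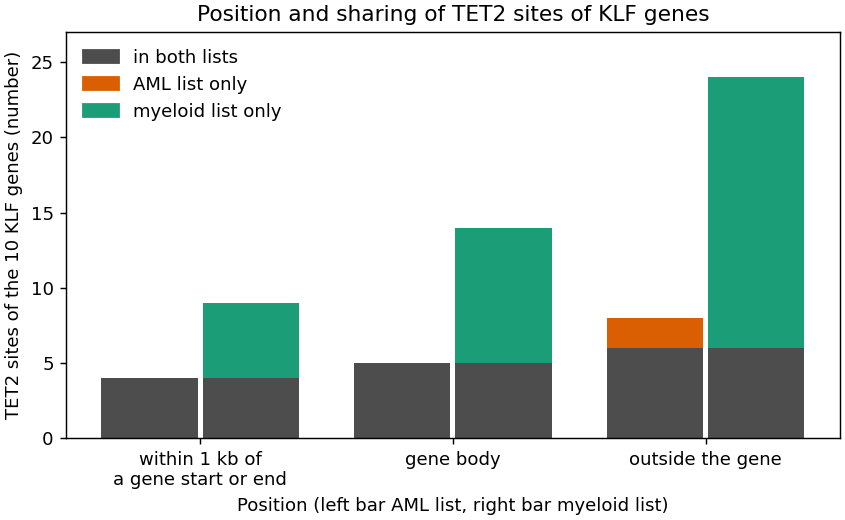
Number of TET2 sites of the 10 KLF genes (y axis) by position, with AML sites in the left bar and myeloid sites in the right bar, divided by presence in both lists or in 1. All 9 AML sites at gene ends or in gene bodies were shared, and the 2 AML-only sites lay outside the genes.

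The difference between the lists was tested gene by gene on unshared sites, with the AML-only and myeloid-only sites of a gene set against all others by Fisher's exact test (two-sided). Of 452 genes with at least 5 unshared sites, 0.664% differed at an adjusted p under 0.05, and 25 did at an unadjusted p under 0.05. The 3 KLF genes that could be tested, Klf6, Klf7 and Klf10, had 0 AML-only and 5, 6 and 7 myeloid-only sites. None of the 3 differed, with a Fisher exact p of 1.0 before and after adjustment in each and 0 of 3 at an unadjusted p under 0.05. Since most unshared sites are myeloid-only, a gene with 0 AML-only sites would need 29 myeloid-only sites to reach an unadjusted p of 0.05. The test therefore had no power to show a lean to the myeloid list at these genes. It treats neighbouring sites as independent and compares the lists, not the conditions.

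The 7 other KLF genes had fewer sites over almost the same amount of assigned sequence, 1288.7 kb against 1295.1 kb. They had 2 AML sites and 4 myeloid sites in all, or 0.155 and 0.31 per 100 kb. Both values were below the 0.335 and 0.940 of all protein-coding genes. Klf5, an epithelial growth regulator, had 3 myeloid sites and a single AML site at one of the same places. Klf14 had 1 AML-only site and Klf16 had 1 myeloid site, at an end of the gene. Klf8, Klf12, Klf15 and Klf17 had 0 in both lists. These 7 were left out of the 10 with earlier results known, so the contrast is a description.

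Of the 9 genes of the related SP factors, which bind GC boxes with like zinc fingers, 3 had a site in the AML list and 6 in the myeloid list. Sp3 had 0 AML and 5 myeloid sites, Sp2 had 1 and 3, and Sp4 had 1 and 3, its AML site being AML-only. Of 20 genes of KLF partners and regulators, 4 had a site in the AML list and 15 in the myeloid list. For comparison with both groups, the background shares were 19.8% in the AML list and 42.0% in the myeloid list. The AML count of 4 in 20 partner genes was thus close to the background and does not set them apart. These shares take no account of the length of assigned sequence. Per 100 kb of it the partner genes had 0.197 AML and 1.03 myeloid sites, against 0.335 and 0.940 over all protein-coding genes. The myeloid density of the partner genes was thus near that of all genes. The SP genes had 0.404 and 1.88 per 100 kb, from 3 and 14 sites. Mef2c, whose product activates Klf2 in endothelial cells, had 2 and 2. Smad7, an inhibitor of TGF-beta signalling, had 1 and 3, and Fbxw7, a ubiquitin ligase subunit, had 1 and 2. Kat2b, an acetyltransferase, had 0 and 3. The median number of sites per gene was 0 in the AML list and 1 in the myeloid list for the SP genes and for the partner genes, and 1 and 4 for the KLF genes, where over all genes both medians were 0.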

How the data were processed

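Per the file headers, the authors deposited 1 list of TET2 sites per cell type, whose other values are only the chromosome, start and end of a site; no score and no value per library was given. The submitters' processing notes name the tools Trimmomatic, Bowtie2 and MACS2 and the build mm10. Versions, thresholds, replicate pooling and the role of the knockout, input and IgG libraries in the site calls were not given in the sources used here, so the depth behind a site is unknown, the knockout could not be checked, and a start is uncertain by 1 bp. The lists held 7002 AML and 19706 myeloid sites. Overlapping sites (1 bp or more) were joined within each list and 1 AML site off the main chromosomes was left out, which left 6895 and 18822. A site was shared when it overlapped one of the other list by at least 1 bp, as 4922 did.

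Genes were the 21887 protein-coding entries of the RefSeq GRCm38.p6 gene table, with strand from the RefSeq promoter table. A site inside more than 1 gene counted for each. The sequence assigned to a gene is all bases that the same rule would give it. Per-gene tests used Fisher's exact test (scipy 1.17.1) with Benjamini-Hochberg adjustment over all tested genes (statsmodels 0.14.6). They were run on simulated independent sites in which some genes had a raised share of AML-only sites. A lean to the myeloid list was not simulated, so that run does not bear on the KLF genes tested. The members and gene lists were chosen with earlier results of these data known. All 10 KLF genes, the other KLF genes with a site, and the 3 SP and 4 partner genes with most sites (ties by symbol) were to be named, and each list is described by its counts. Protein sequences were not used here.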

Additional observations from a re-analysis of the deposited data

How the results depend on the processing

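No paired analysis was possible because the lists hold no value per library, and for the same reason no replicate could be left out and no stricter threshold applied. When all annotated RefSeq genes, noncoding ones included, competed for a site, the KLF genes had 11 AML sites in place of 17, and 100% of these were shared in place of 88.2%, since the AML-only sites and others then went to other gene models. With a gene-end window of 2 kb, 16 myeloid sites were at gene ends in place of 9. The other settings of the site counts and shares stayed within 1.5 times the value given, or within its interval for the shared percentage, which ran from 82.4% to 92.3%. AML totals ran from 11 to 17 and myeloid totals from 32 to 50. The per-gene test had no power for a lean to the myeloid list, so its count of 0 under each setting run says nothing about stability. Among 100 recounts of single genes, 12 changed by over 1.5 times or to 0: the AML count of Klf13 fell to 5 with a limit of 50 kb or 20 kb and to 4 with all annotated genes, and that of Klf9 to 0 with all annotated genes. The myeloid count of Klf4 was 0 with either shorter limit or with all annotated genes. The myeloid count of Klf10 fell to 5 and that of Klf3 to 2 at 20 kb and with all annotated genes, and that of Klf6 to 5 with all annotated genes. Without scores or reads, neither the strength of a site nor its depth could be weighed.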
